A study of Mus musculus with 18 samples.

Results

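The liver transcriptome after an antisense oligonucleotide (ASO) directed at ACAT2 was compared with that after a control ASO without a target. The comparison took 8 of the 18 arrays of the series, the 4 titled as ACAT2 ASO and the 4 titled as control ASO. All 8 samples were liver of female C57BL/6N mice aged 6 to 8 weeks. Both groups had received an oligonucleotide, so no untreated liver entered the comparison. The sources used here give no dose, length of treatment, diet or oligonucleotide sequence. According to the series' design text, the ACAT2 ASO served as an acute stimulus of transintestinal cholesterol excretion, and liver was searched for genes that may regulate the return of cholesterol from macrophages. Samples are numbered within a group, but the labels do not say that each number is another animal. The p-values therefore rest on the spread of these samples, part of which may be technical.

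ACAT2 is an enzyme of the endoplasmic reticulum that joins cholesterol to a fatty acid. In hepatocytes the resulting ester is packed into lipoproteins or kept in lipid droplets. An ASO binds RNA by base pairing, and many designs recruit RNase H, a nuclease that cuts the RNA strand of an RNA-DNA hybrid in the nucleus as well as in the cytoplasm. Transintestinal excretion carries cholesterol from blood across the gut wall, apart from the route through bile. The targeted transcript was not analysed here, and the strength of its knockdown is therefore not part of these results.

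The deposited values are log2 probe set summaries made with RMA, and 17097 genes were tested. The median of all values of an array lay between 4.38 and 4.40. Hepatocyte markers averaged 12.23 ± 0.05 on the ACAT2 ASO arrays and 12.24 ± 0.02 on the control ASO arrays (SD, n = 4 each), and 14 of 16 listed markers were measured. The difference between the 3′ and 5′ control probe sets of beta-actin, a sign of RNA integrity, averaged 1.05 in both groups (SD 0.11 and 0.05, n = 4, two-sided exact permutation p = 0.971). On principal component analysis 2 arrays, ACAT2 ASO 1 and control ASO 4, stood apart from the other 6. They scored 23.4 and 26.6 on the first component, which held 43.0% of the variance, and the others scored between -12.6 and 1.58. The component did not separate the groups. The second component, with 21.3% of the variance, nearly did: the ACAT2 ASO arrays scored 12.7, -0.30, 14.7 and 8.58 and the control ASO arrays -15.1, -8.49, 0.30 and -12.3. ACAT2 ASO 1 and control ASO 4 carried high values of immune genes, described further on, and results are given with and without them.

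Between the groups, few genes differed beyond the replicate spread, and in the fit on these 8 arrays nearly all of those that did were lower after the ACAT2 ASO. The call required an adjusted p under 0.05 in limma (Benjamini-Hochberg), and this held for 17 genes, 0.0994% of those tested. Of these, 16 fell (0.0936%) and 1 rose. The split was less one-sided in several larger sets of calls, to differing degrees. It was 79 lower and 35 higher with all 18 arrays in the fit, and 53 and 21 at an adjusted p under 0.10. With the probe set of largest interquartile range it was 17 and 5, with array weights 47 and 6, and with arrays centred on their median 18 and 2. Without control ASO 4 it was 18 and 0. The change reached 1.5-fold for 11 called genes and 2-fold for 4. At an unadjusted p under 0.05, 1317 genes were lower (7.7%) and 1136 were higher (6.64%). The 4 arrays of one group lay entirely below the 4 of the other for 797 genes in the direction of lower values after the ACAT2 ASO (4.66%) and for 753 in the direction of higher values (4.4%). With a difference of at least 0.5 on the log2 scale beside the lack of overlap, 54 genes were lower (0.316%) and 15 higher (0.0877%). The median change over all genes was -0.000636. The excess of falls thus lay among the larger and more regular differences and not in the middle of the distribution.

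**Figure D1:**
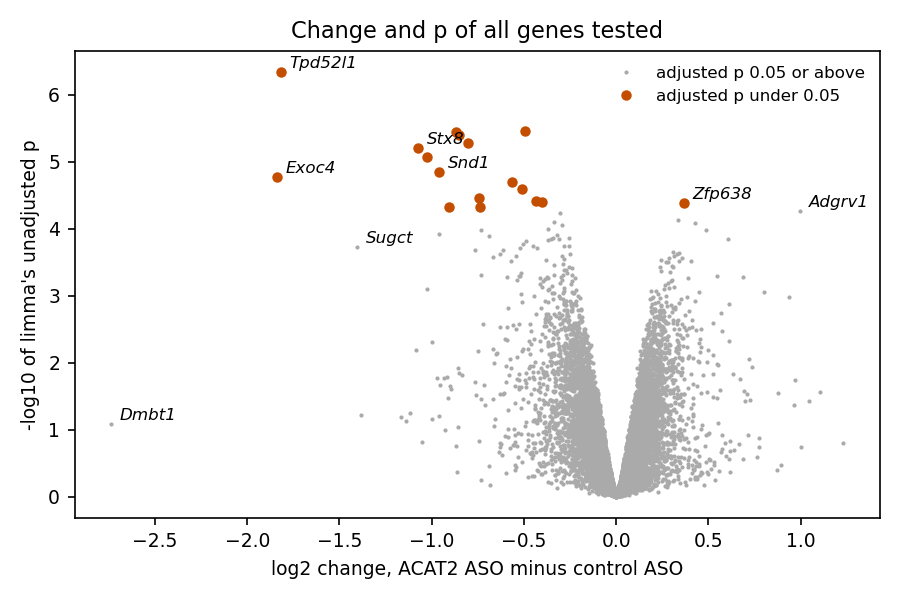
The log2 change of each of the 17097 genes (ACAT2 ASO minus control ASO, 4 arrays each, horizontal axis) is plotted against -log10 of limma's unadjusted p (vertical axis), with the genes at an adjusted p under 0.05 in orange. Of the 17 orange points 16 lie at the left, while Dmbt1, with the largest change, sits low, with control values from 3.98 to 10.40.

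Among the called genes, the vesicle tethering gene Exoc4 and the vesicle fusion gene Stx8 fell together with genes of unrelated known roles. Exoc4 encodes a subunit of the exocyst, the complex that tethers secretory vesicles to the plasma membrane. Its log2 values were 6.06, 5.80, 5.38 and 5.09 on ACAT2 ASO arrays 1 to 4 and 7.30, 7.77, 7.21 and 7.41 on control ASO arrays 1 to 4. Every ACAT2 ASO array lay below every control array, by more than 1 on the log2 scale, and the change was -1.84 ± 0.21 (limma SE, adjusted p = 0.0321). Stx8, a SNARE protein of endosomes, read 7.04, 7.13, 6.74 and 6.76 after the ACAT2 ASO and 8.01, 8.00, 7.79 and 8.15 after the control ASO. The groups did not overlap, and the change was -1.07 ± 0.11 (adjusted p = 0.0181). Both genes have further probe sets that were called: -1.77 and -1.09 for Exoc4 and -0.86 for Stx8. A pair of other Exoc4 probe sets differed by -0.14 and -0.07.

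Tpd52l1, a member of the tumor protein D52 family, had the smallest p of all genes. It read 5.13, 5.76, 5.43 and 5.40 after the ACAT2 ASO and 7.45, 7.25, 7.05 and 7.23 after the control ASO, a change of -1.82 ± 0.13 (limma adjusted p = 0.00785). Sfxn5, of the sideroflexin family of mitochondrial carriers, read 5.54, 5.92, 5.97 and 5.57 against 6.84, 6.84, 6.79 and 6.64 on the control arrays. Its change was -1.03 ± 0.11 (adjusted p = 0.0209), and its ACAT2 ASO values formed a lower pair, arrays 1 and 4, and a higher pair. Snd1, a nuclease-domain protein known as a transcriptional coactivator and a part of RNA silencing complexes, read 6.94, 6.61, 6.47 and 6.49 against 7.46, 7.71, 7.66 and 7.52. ACAT2 ASO 1 was the closest to the controls, and the change was -0.96 ± 0.11 (adjusted p = 0.0306).

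Spop is the substrate adaptor of a cullin-3 ubiquitin ligase. It read 8.97, 8.75, 8.68 and 8.62 after the ACAT2 ASO and 9.51, 9.72, 9.68 and 9.60 after the control ASO, a change of -0.87 ± 0.08 (limma adjusted p = 0.0172). A second Spop probe set was called at -0.90. Babam2, a subunit of deubiquitinating complexes that act in DNA repair, read 6.32, 6.13, 6.07 and 6.13 against 7.21, 6.98, 6.98 and 6.89. Its ACAT2 ASO arrays lay close together, and the change was -0.85 ± 0.08 (adjusted p = 0.0172). Sil1, the nucleotide exchange factor of the endoplasmic reticulum chaperone BiP, read 7.95, 7.95, 7.79 and 7.62 against 8.60, 8.73, 8.59 and 8.36, a change of -0.74 ± 0.10 (adjusted p = 0.0480). None of these genes had a control array as low as any ACAT2 ASO array.

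The receptor-type tyrosine phosphatase gene Ptprg read 5.94, 6.08, 5.90 and 5.88 after the ACAT2 ASO and 6.68, 6.90, 6.85 and 6.58 after the control ASO, a change of -0.80 ± 0.08 (limma adjusted p = 0.0181). Atrnl1, which encodes an attractin-like membrane protein, read 6.74, 6.80, 6.31 and 6.39 against 7.32, 7.42, 7.58 and 7.53, a change of -0.90 ± 0.12 (adjusted p = 0.0480). Its ACAT2 ASO arrays 1 and 2 were the higher pair and arrays 3 and 4 the lower. Smim22, a small membrane protein gene, fell by 0.75 on the log2 scale, from between 6.01 and 6.42 on the control arrays to between 5.30 and 5.56. Its other probe set differed by 0.006 and was the only further probe set of a called gene in the opposite direction. Further probe sets of Babam2 and Smarcc1 also included small differences, of -0.009 and -0.05.

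The remaining called falls were smaller than 0.58 on the log2 scale, with the same separation of the groups. Ppfibp1, a liprin that links adhesion sites to the cytoskeleton, fell by 0.56, and Zfp612, a zinc finger gene, by 0.51. Golt1a, a Golgi transport gene, fell by 0.49, with ACAT2 ASO values of 6.49, 6.58, 6.48 and 6.50 and control values of 6.93, 7.07, 7.00 and 7.02. Its change was small, as was its SE of 0.05 (limma adjusted p = 0.0172). Smarcc1, a core subunit of SWI/SNF chromatin remodelling complexes, fell by 0.44 and Dtnb, a dystrobrevin of the dystrophin-associated complex, by 0.40. Adjusted p of these genes other than Golt1a lay between 0.0347 and 0.0473. Zfp638, a zinc finger protein that binds RNA and DNA, was the called rise: it read 7.37, 7.27, 7.41 and 7.27 after the ACAT2 ASO and 6.99, 6.99, 6.92 and 6.94 after the control ASO, a change of 0.37 ± 0.05 (adjusted p = 0.0473). Further Zfp638 probe sets differed by only 0.02 and 0.06, and the groups overlapped. In the fit over all probe sets, the probe set used was not called for Zfp638, Smim22, Smarcc1 or Dtnb (limma adjusted p = 0.0523). The same held for Sil1 and Atrnl1 (adjusted p = 0.0527).

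**Figure D2:**
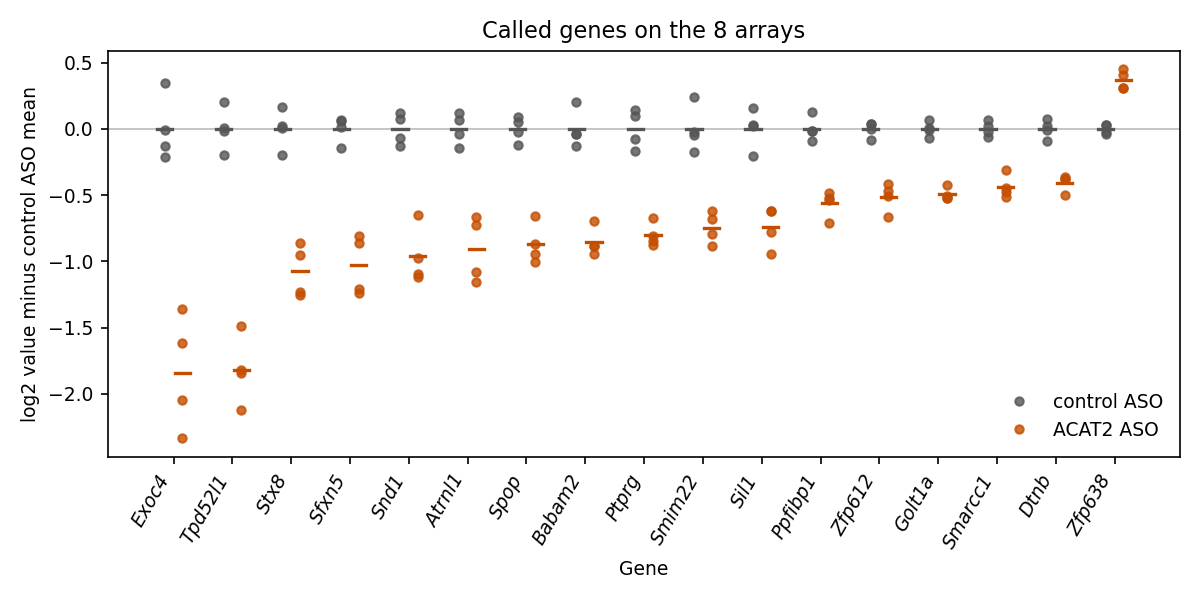
The log2 values of the 17 called genes are drawn relative to each gene's control ASO mean (vertical axis), with gray points for the 4 control ASO arrays, orange points for the 4 ACAT2 ASO arrays and short lines for the group means. The groups do not overlap for any of the 17 genes, and Exoc4 and Tpd52l1 lie furthest down, at -1.84 and -1.82.

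Of the 17 called genes, 11 had further probe sets, 19 in all, and 18 of these differed in the same direction. Only 7 showed at least 0.5 of the change of the probe set used. Among the 10 further probe sets whose mean exceeded 4.57, the 40th percentile of the gene means, 9 had the same direction. Over all 45037 probe sets, limma called 20 (0.0444%), of which 19 fell. The largest change among them belonged to probe set 1460722_PM_at, which has no symbol in the annotation used here. It read 4.55, 4.85, 4.70 and 4.35 after the ACAT2 ASO and 7.25, 7.66, 7.40 and 7.02 after the control ASO. That difference of -2.72 ± 0.15 was a 6.57-fold lower level (adjusted p = 0.00109). The called rise among probe sets, 1447681_PM_x_at, also lacks a symbol, and it differed by 0.62 (adjusted p = 0.045).

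Most of the 17 called genes were long, and this was less so in settings that called more genes. In RefSeq GRCm38.p6 the span from the first to the last base of the gene had a median of 179 kb over the 16 genes that fell, against 20.2 kb over all genes tested with a span. Of the 16, 12 spanned more than 100 kb (75%), against 12.5% of all genes. With array weights 20 of 47 called falls spanned more than 100 kb (median 92.7 kb). With all 18 arrays in the fit it was 21 of 79 (median 24.5 kb), and the called rises there had a median of 24.6 kb. Exoc4 spans 725 kb, Ptprg 689 kb, Atrnl1 522 kb, Snd1 455 kb, Babam2 387 kb, Stx8 241 kb and Sil1 233 kb. The shortest genes among the called falls were Smim22 (1.02 kb), Zfp612 (13.0 kb) and Golt1a (13.2 kb). Over all genes, the share that was lower by at least 0.5 with no overlap went from 0.157% of genes under 10 kb to 0.706% of those from 100 to 200 kb and 1.41% of those over 200 kb. For genes that were higher by at least 0.5 the shares were 0.0783%, 0.157% and 0.235%. With no limit on size, the 1317 genes lower at an unadjusted p under 0.05 had a median span of 18.6 kb and the 1136 higher ones of 25.9 kb. The share of lower genes at that level was 8.18% under 10 kb, 6.66% from 25 to 50 kb and 8.94% over 200 kb, and that of higher genes was 5.13%, 7.69% and 7.53%. The mean log2 level of genes over 200 kb was 5.00, against 5.60 for genes under 10 kb, and the part of level in this relation was not tested. Sugct, which encodes a transferase of glutarate metabolism and spans 837 kb, was not called. It read 4.84, 5.18, 5.33 and 5.07 against 6.96, 6.55, 6.70 and 5.83, a difference of -1.40 (adjusted p = 0.0773), and without the 2 arrays that stood apart it fell by 1.54 (adjusted p = 0.0140).

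**Figure D3:**
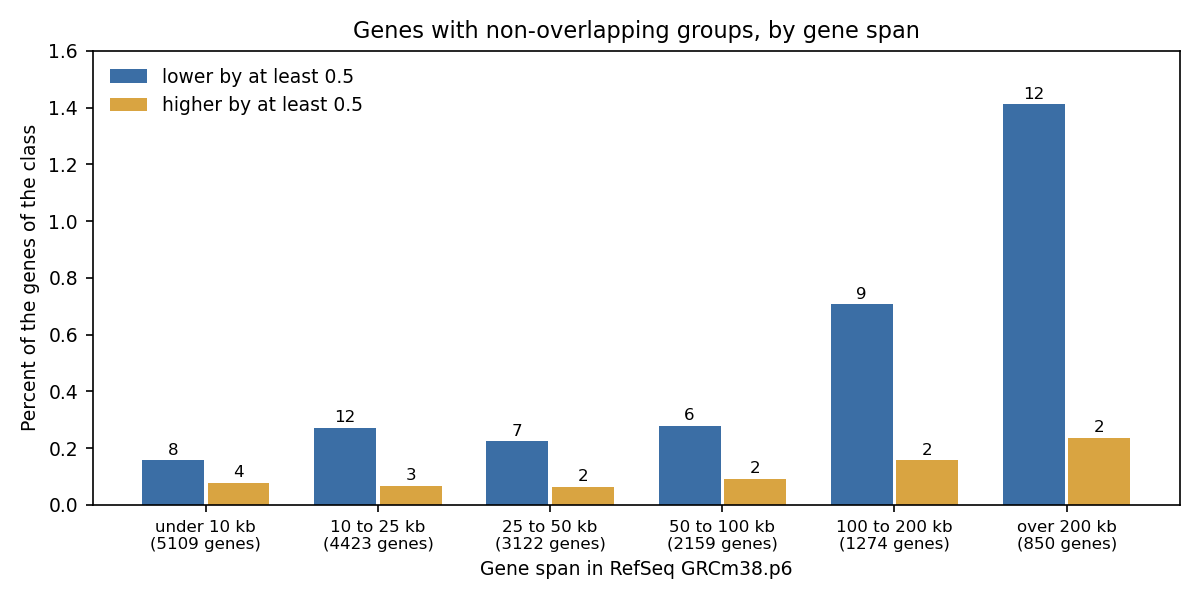
Bars show the percent of genes in each class of gene span (horizontal axis, with the number of genes per class) whose 4 ACAT2 ASO arrays all lay below (blue) or above (yellow) the 4 control ASO arrays with a difference of at least 0.5 on the log2 scale, and the number over a bar counts its genes. The blue share is 1.41% over 200 kb and 0.157% under 10 kb.

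Without ACAT2 ASO 1 and control ASO 4, limma called 9 genes, all of them lower: Exoc4, Tpd52l1, Sfxn5, Snd1, Spop, Babam2 and Ptprg again, with Sugct and Cyp2b13 added. Exoc4 then fell by 2.00 (adjusted p = 0.0498) and Tpd52l1 by 1.72 (adjusted p = 0.0140). Of the 9, 7 span more than 100 kb. With 3 arrays against 3 the spread is judged from fewer arrays, and the calls depended on single arrays in the full comparison too. The count was 8 without ACAT2 ASO 1, 5 without ACAT2 ASO 2, 0 without ACAT2 ASO 3 and 0 without ACAT2 ASO 4. It was 5 without control ASO 1, 0 without control ASO 2, 1 without control ASO 3 and 18 without control ASO 4. At an unadjusted p under 0.05 the fits that called 0 genes held 1962, 1929 and 2059. Over all probe sets the count lay between 5 and 13. All 17 called genes kept their direction in every one of these fits, and the highest adjusted p that any of them reached was 0.201.

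Genes with higher values after the ACAT2 ASO mostly missed the threshold. Adgrv1, a very large adhesion G protein-coupled receptor, read 6.61, 6.56, 6.83 and 6.89 against 6.05, 5.44, 5.82 and 5.61 on the control arrays, a difference of 1.00 (limma adjusted p = 0.0513). Every ACAT2 ASO array lay above every control array by at least 0.5. Egln3, a prolyl hydroxylase of the oxygen-sensing pathway, read 7.52, 7.42, 7.64 and 7.43 against 6.68, 6.96, 7.10 and 6.84 (difference 0.61, adjusted p = 0.0716). Tdg, a DNA repair glycosylase gene, differed by 0.43, Ncoa2, a coactivator of nuclear receptors, by 0.33, and Ccdc162 by 0.49 (adjusted p = 0.0632, 0.0822 and 0.0688). Fam220a, the chemokine receptor-like gene Ccr1l1, the junctional adhesion gene Jam2 and Kap, an androgen-regulated gene of the kidney, differed by 0.33, 0.34, 0.31 and 0.36 (adjusted p between 0.0628 and 0.0832). Larger but irregular differences were those of Xlr4b, an X-linked lymphocyte-regulated gene, and Ddit4, a stress-induced inhibitor of mTOR. Xlr4b read 6.68, 4.86, 3.82 and 7.94 against 4.77, 3.91, 4.76 and 4.94, where ACAT2 ASO 1 and 4 were high and ACAT2 ASO 3 was lowest of all 8 arrays (difference 1.23, adjusted p = 0.521). Ddit4 read 9.40, 6.37, 9.53 and 9.27 against 8.25, 6.84, 7.65 and 7.84, where ACAT2 ASO 2 was lowest of all (difference 1.00, adjusted p = 0.544). In the other direction Erdr1, an erythroid differentiation regulator, read 7.64, 7.49, 6.39 and 7.10 against 7.13, 7.41, 9.57 and 9.05, and control ASO 3 and 4 were the high arrays (difference -1.14, adjusted p = 0.399).

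Some single genes of growth signalling were higher without a call, while the medians of the lists they belong to lay near 0. Ccnd1, the cyclin D1 gene of cell cycle entry, read 9.72, 9.86, 9.83 and 9.53 after the ACAT2 ASO and 8.97, 9.35, 9.10 and 8.75 after the control ASO, with no overlap (difference 0.69, limma adjusted p = 0.102). Tgfa, a ligand of the EGF receptor, read 7.03, 6.80, 7.06 and 6.85 against 6.50, 6.56, 6.60 and 6.45, again without overlap (difference 0.41, adjusted p = 0.0832). Btc, a second ligand, differed by 0.34 (adjusted p = 0.212). Egfr, the receptor itself, read 10.72, 9.79, 10.04 and 9.45 against 8.36, 8.27, 9.07 and 10.11. Control ASO 4 lay within the range of the ACAT2 ASO arrays, and the difference of 1.05 had an adjusted p of 0.324. Without the 2 arrays that stood apart it was 1.19 (adjusted p = 0.173). Of 13 measured ligands and receptors of this family, 3 were higher and 0 lower at an unadjusted p under 0.05, where 6.64% of all genes were higher and 7.7% lower. Of the 13, 8 were above 0. The median was 0.02, near the median over all genes. The mean of this list was 6.21 to 6.28 on the ACAT2 ASO arrays and 6.04 to 6.16 on the control arrays, without overlap. Of 21 measured genes of cell cycle and growth entry, Ccnd1 was the one higher at that level, and 3 were lower, Ccnd2, Ccnd3 and Cdk4, each by -0.22. Of the 21, 7 were above 0, with a median of -0.05. The mean of the 21 was 5.47 on ACAT2 ASO 1 and 5.59 on control ASO 4, against 5.11 to 5.20 on the other arrays.

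ACAT2 ASO 1 and control ASO 4 shared a gene pattern that ran across the groups. A gene was counted for an array when it lay at least 1 on the log2 scale above every other array of the same group. This count was 87 genes for ACAT2 ASO 1 and 205 for control ASO 4, against 2 to 11 for each of the other 6 arrays, and 70 genes were counted for both. In the other direction the counts were 17 and 11, with 4 genes in common.

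The leading gene was Ubd, an interferon-inducible ubiquitin-like modifier, at 6.25 on ACAT2 ASO 1 and 8.87 on control ASO 4, against 3.56 to 4.29 on the other 6 arrays. Marco, a scavenger receptor of macrophages, read 8.57 and 9.26 on these arrays and 4.70 to 6.29 on the others. Cxcl9, a chemokine that draws T cells, read 10.89 and 11.87, against 6.96 to 9.09. The GTPase gene Tgtp1 read 9.79 and 11.41, against 6.79 to 8.00, and Saa3, an acute phase gene, read 10.92 and 11.42, against 7.74 to 9.11. The MHC class II gene H2-Eb1 read 10.18 and 9.67, against 7.45 to 8.58. Pla2g7, which inactivates platelet-activating factor, and the membrane-spanning genes Ms4a6d, Ms4a6b and Ms4a4b also separated both arrays from the other 6. None of these 10 genes was called between the groups, and their adjusted p lay between 0.742 and 0.976. The genes were chosen by these values, which are therefore a description with no test.

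Windows of 300 bases, from 250 before to 50 after the RefSeq transcript start, are shown for 3 of these genes because interferon-responsive promoters carry known motifs. Capitals mark matches, on either strand, to GAS (TTCNNNGAA), to the core of the interferon-stimulated response element (GAAANNGAA) and to the CCAAT box (CCAAT). In Cxcl9 the matches are 1 of the response element core and 1 CCAAT. In Tgtp1 they are 1 GAS and 1 core, separated by a few bases. In H2-Eb1, whose class II promoter is known to carry a Y box with the CCAAT letters, they are 2 CCAAT, one on each strand. The build is GRCm38.p6.
Cxcl9, chr5:92328030-92328329, minus strand: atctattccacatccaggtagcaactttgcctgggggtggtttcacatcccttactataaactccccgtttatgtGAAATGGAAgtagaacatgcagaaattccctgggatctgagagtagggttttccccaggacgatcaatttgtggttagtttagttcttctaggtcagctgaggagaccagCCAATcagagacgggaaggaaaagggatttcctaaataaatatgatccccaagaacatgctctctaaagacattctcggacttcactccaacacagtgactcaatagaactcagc
Tgtp1, chr11:48992197-48992496, minus strand: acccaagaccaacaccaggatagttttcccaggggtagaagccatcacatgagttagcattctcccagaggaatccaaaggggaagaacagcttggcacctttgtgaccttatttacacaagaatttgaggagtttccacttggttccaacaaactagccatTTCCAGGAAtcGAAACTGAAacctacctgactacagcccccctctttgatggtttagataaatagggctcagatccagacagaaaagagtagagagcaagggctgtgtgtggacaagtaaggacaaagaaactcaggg
H2-Eb1, chr17:34305617-34305916, plus strand: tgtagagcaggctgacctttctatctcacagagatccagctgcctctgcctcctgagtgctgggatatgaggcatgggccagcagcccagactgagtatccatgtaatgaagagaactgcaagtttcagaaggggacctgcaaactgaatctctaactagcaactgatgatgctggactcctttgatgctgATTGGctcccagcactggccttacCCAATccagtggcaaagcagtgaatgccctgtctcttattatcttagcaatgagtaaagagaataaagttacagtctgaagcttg
Of the 10 genes, 9 had such a window. The response element core was in 4 of the 9 (Saa3, Cxcl9, Tgtp1 and Ms4a6b), against 8.56% of 32851 windows of this length. GAS was in 2 (Pla2g7 and Tgtp1), against 8.3%, and CCAAT in 3 (Ubd, Cxcl9 and H2-Eb1), against 37.4%. A match of letters is not evidence of binding. Of the 15 called genes with a window, the core was in 0, GAS in 2 and CCAAT in 5.

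Whole marker lists showed the same arrays apart, though not to the same degree and not for every list. Macrophage and Kupffer cell markers (24 of 25 measured) averaged 7.80 on ACAT2 ASO 1 and 7.51 on control ASO 4, against 6.49 to 7.06 on the other arrays. Genes of MHC class II and antigen presentation (14 of 17 measured) averaged 8.96 and 8.84, against 7.37 to 8.00. Interferon-stimulated genes (23 of 28 measured) averaged 6.97 and 7.93, against 6.14 to 6.53, so for this list control ASO 4 stood above ACAT2 ASO 1. Acute phase and complement genes averaged 11.51 and 11.74, against 10.70 to 11.10, and lymphocyte markers 4.96 and 5.02, against 4.46 to 4.62. Neutrophil markers averaged 5.16 on control ASO 4 but 5.02 on ACAT2 ASO 1, below the 5.13 of ACAT2 ASO 4. Hepatocyte markers stayed between 12.16 and 12.28 on all 8 arrays. In bulk liver, more cells of a type and more RNA per cell cannot be told apart.

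**Figure D4:**
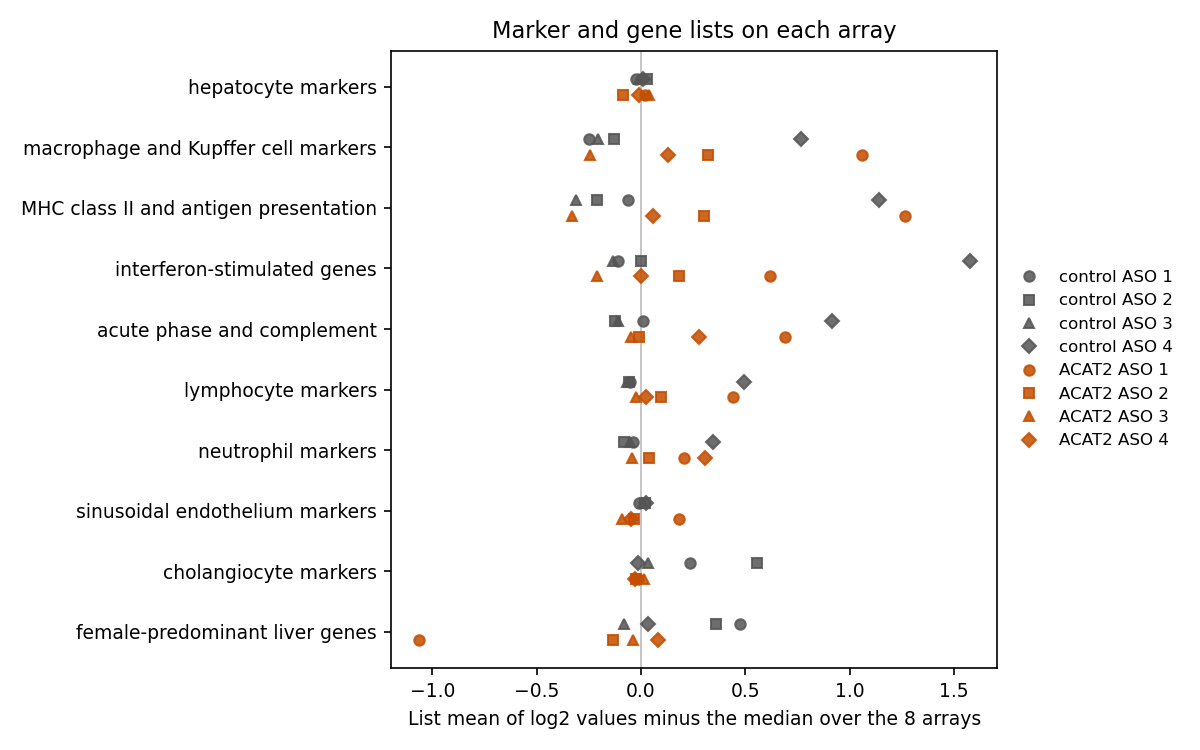
For 10 lists, the mean log2 value of the measured members on each array is plotted as its distance from the median over the 8 arrays (horizontal axis), with orange symbols for ACAT2 ASO, gray symbols for control ASO and a symbol shape for each array number. ACAT2 ASO 1 and control ASO 4 are the rightmost points for macrophage, MHC class II, interferon, acute phase and lymphocyte genes, and the 8 points nearly coincide for hepatocyte markers.

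Genes that were low on both arrays included metabolic genes of hepatocytes. Hao2, a peroxisomal hydroxy acid oxidase, read 6.09 on ACAT2 ASO 1 and 5.66 on control ASO 4, against 8.54 to 9.57 on the other arrays. Sult2a2, a steroid sulfotransferase of female liver, read 4.45 and 7.95, against 9.29 to 11.94. Acot3, a peroxisomal thioesterase, read 8.07 and 9.84, against 9.99 to 11.13. Krt23, Tppp, Acsl3, Rnf186, Rcan2 and Dusp6, a phosphatase that restrains ERK signalling, had their lowest value of each group on these arrays too. These genes were also chosen by these values, which are a description with no test. The female-predominant list (14 of 18 measured) showed the sides unequally. It averaged 6.81 on ACAT2 ASO 1, under all others, and 7.91 on control ASO 4, within the range of 7.74 to 8.35 of the rest. All 14 members differed downward between the groups, with a median of -0.51, and without the 2 arrays 3 of the 14 were above 0 and the median was -0.16. At an unadjusted p under 0.05, 1 was lower, the transcriptional coregulator gene Trim24, by -0.72 (limma adjusted p = 0.276). Cyp2b13, a female-predominant cytochrome P450, read 7.71, 10.20, 10.10 and 10.15 against 11.03, 10.97, 10.81 and 10.02. Its difference of -1.17 was not called (adjusted p = 0.381), whereas without the 2 arrays, where the groups did not overlap, it fell by 0.79 (adjusted p = 0.0287). Cyp2b13 was among the genes chosen for low values on these 2 arrays, and leaving them out removes those values, so this change of call is a description.

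Between the groups the immune lists depended on which of the 2 arrays was present. The median difference of macrophage markers was 0.28, with 20 of 24 members above 0, and the median over all genes was -0.000636. It was 0.23 without both arrays, 0.03 without ACAT2 ASO 1 and 0.54 without control ASO 4. On the other 3 arrays of each group the list means were 7.06, 6.50 and 6.87 on ACAT2 ASO 2, 3 and 4 and 6.49, 6.61 and 6.53 on control ASO 1, 2 and 3, where ACAT2 ASO 3 overlapped the controls. Cd163, a hemoglobin scavenger receptor of resident macrophages, was the one marker higher at an unadjusted p under 0.05. It read 7.85, 6.80, 6.24 and 6.60 against 4.95, 6.49, 5.97 and 6.22 (difference 0.96, limma adjusted p = 0.339). Vsig4, Clec4f and C1qa, which mark Kupffer cells, differed by 0.55, 0.32 and 0.43 (adjusted p between 0.411 and 0.567). The median of MHC class II and antigen presentation genes was 0.23, or 0.17 without both arrays, and lay between -0.08 and 0.50 when single arrays were left out. That of interferon-stimulated genes was -0.20, or 0.02 without both arrays, and lay between -0.35 and 0.14. No member of these lists was called, and without the 2 arrays 9 of the 35 list medians changed sign.

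**Figure D5:**
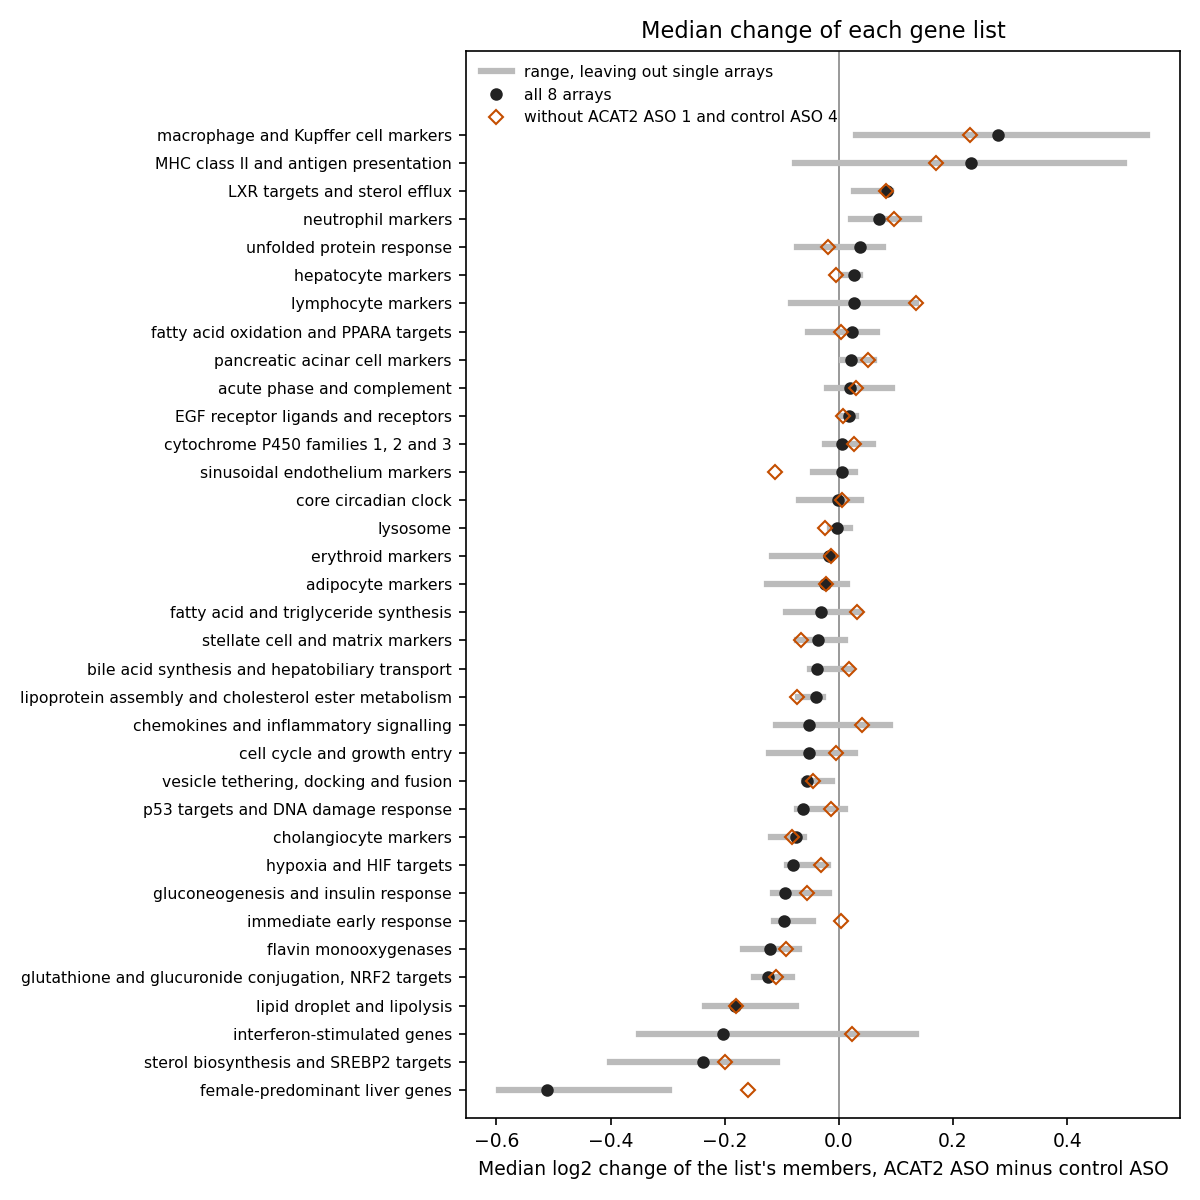
For each of the 35 lists, the median log2 change of the measured members (ACAT2 ASO minus control ASO, horizontal axis) is shown with all 8 arrays (black), without ACAT2 ASO 1 and control ASO 4 (open orange diamonds) and as the range over fits that leave out single arrays (gray bars). The female-predominant median moves from -0.51 to -0.16 and that of interferon-stimulated genes from -0.20 to 0.02, while the medians of sterol biosynthesis and of lipid droplet genes are -0.18 or lower in both of these settings.

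A separate pattern lay on control ASO 1 and 2. Dmbt1, a secreted scavenger protein of ducts and mucosa, read 8.93, 10.40, 4.54 and 3.98 on control arrays 1 to 4 and 3.76, 3.69, 3.78 and 5.68 after the ACAT2 ASO. Its difference of -2.74 was the largest of all genes but was not called (limma adjusted p = 0.417), and control ASO 3 and 4 overlapped the ACAT2 ASO arrays. Krt19, the keratin of bile duct epithelium, read 5.50, 6.85, 4.33 and 4.30 against 3.99, 4.12, 4.20 and 4.19, and the surface glycoprotein gene Cd24a read 7.53, 8.69, 5.45 and 6.11 against 6.04, 5.56, 4.97 and 5.68. Muc1, an epithelial mucin, followed the same order, with 4.73, 5.43, 4.31 and 4.16 on the control arrays. Cholangiocyte markers (10 of 14 measured) averaged 4.51 and 4.83 on control ASO 1 and 2 and 4.24 to 4.31 on the other 6 arrays. The size was uneven within the list: Krt19 and Muc1 differed between the groups by -1.12 and -0.49, Krt7 and Cftr by -0.17 and -0.08. The median of the 10 was -0.07, and 2 were above 0. On control ASO 3 and 4 Dmbt1, Krt19, Cd24a and Muc1 lay near or within the range of the ACAT2 ASO arrays, and their adjusted p lay between 0.365 and 0.417.

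Genes of cholesterol ester and lipoprotein metabolism, the process in which ACAT2 acts, were mostly near 0 with none called. Of 22 measured, 7 were above 0, and the median was -0.04. The list mean was 10.27 to 10.29 on the ACAT2 ASO arrays and 10.32 to 10.40 on the control arrays, without overlap. At an unadjusted p under 0.05, 4 were lower and 0 higher, a share of 4 in 22 against the 7.7% of all genes. The 4 were Ces1f, a carboxylesterase, Apom and Apoc2, apolipoprotein genes, and Nceh1, a hydrolase of cholesterol esters. Apom read 11.19, 10.92, 11.24 and 11.07 against 11.26, 11.42, 11.54 and 11.48, without overlap (difference -0.32, limma adjusted p = 0.187). Ces1f read 10.29, 10.77, 10.78 and 10.54 against 11.19, 11.17, 11.11 and 10.71, with an overlap at control ASO 4, and differed by -0.45 (adjusted p = 0.230). Nceh1 and Apoc2 differed by -0.25 and -0.31 (adjusted p = 0.220 and 0.249).

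Sterol biosynthesis genes and other targets of SREBP2, the factor that responds to low sterol, mostly had differences below 0. Of 19 measured, 17 were below 0, with a median of -0.24, or -0.20 without the 2 arrays. No member was called, and the single one at an unadjusted p under 0.05 was Srebf2 itself, which was higher by 0.10. Control ASO 1 carried the highest list mean, 7.32, against 6.76 to 7.02 on the other control arrays and 6.58 to 7.01 on the ACAT2 ASO arrays, so that the groups overlapped. The median was -0.13 without control ASO 1, -0.11 without ACAT2 ASO 1 and -0.40 without ACAT2 ASO 2. Nsdhl, a demethylating enzyme of the pathway, read 6.98, 7.40, 6.95 and 6.94 against 8.14, 7.35, 7.07 and 7.47, and Sc5d, a desaturase of its late steps, read 9.83, 10.46, 10.10 and 10.03 against 10.98, 10.56, 10.25 and 10.17 (limma adjusted p = 0.397 and 0.406).

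Lipid droplet and lipolysis genes had a median of -0.18 over 17 measured members, with 13 below 0, and the same median without the 2 arrays. It was -0.08 without control ASO 1 and -0.23 without control ASO 2. At an unadjusted p under 0.05, 4 were lower and 0 higher, against 7.7% and 6.64% of all genes, and none was called. Bscl2, the seipin gene of droplet formation, read 6.48, 6.50, 6.49 and 6.62 after the ACAT2 ASO and 6.84, 6.82, 6.85 and 6.73 after the control ASO, without overlap (difference -0.29, limma adjusted p = 0.0879). Hsd17b13, a droplet-bound dehydrogenase of hepatocytes, read 10.94, 11.26, 11.20 and 11.21 against 11.62, 11.65, 11.59 and 11.32, also without overlap (difference -0.39, adjusted p = 0.164). Plin3, a droplet coat protein, and Abhd5, the activator of triglyceride lipase, differed by -0.40 and -0.18. Of 20 measured genes of fatty acid oxidation, Cpt1a, the gate of mitochondrial import, was the one lower at that level, at 10.50, 10.55, 10.60 and 10.64 against 11.01, 10.71, 10.94 and 10.89 (difference -0.31, adjusted p = 0.152). Of the 19 genes of fatty acid and triglyceride synthesis, 0 passed that level in either direction.

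No gene of the sterol export and bile acid lists was called. Abcg8, one of the pair of transporters that secretes cholesterol into bile, read 9.79, 10.05, 9.96 and 9.83 against 9.61, 9.44, 9.67 and 9.12, without overlap (difference 0.45, limma adjusted p = 0.187). Its partner Abcg5 differed by 0.16 (adjusted p = 0.510). The 10 measured LXR targets had a median of 0.09. Of 24 bile acid genes, 1 was higher and 2 lower at an unadjusted p under 0.05, where 6.64% of all genes were higher and 7.7% lower. They were Akr1c14, a steroid dehydrogenase, by 0.39, Baat, the conjugating enzyme, by -0.20, and Slc10a1, the bile acid importer, by -0.15. Slc10a2, the bile acid importer of ileum and bile ducts, read 7.41, 6.61, 6.60 and 6.93 against 6.49, 5.72, 4.51 and 6.40. The groups did not overlap, and the difference of 1.11 had an adjusted p of 0.297.

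Detoxification genes contributed some of the larger uncalled differences. Of 22 measured conjugation genes and NRF2 targets, 5 were lower and 0 higher at an unadjusted p under 0.05, against 7.7% and 6.64% of all genes, and the list mean was 9.30 to 9.42 after the ACAT2 ASO against 9.39 to 9.64 on the control arrays. The glutathione transferase gene Gsta4 read 7.14, 7.93, 7.70 and 8.33 against 9.28, 8.82, 8.62 and 8.37, without overlap (difference -1.00, limma adjusted p = 0.187). Its relatives Gstt2, Gstm2 and Gstm3 differed by -0.86, -0.93 and -0.49 (adjusted p between 0.236 and 0.262). Among 33 measured cytochrome P450 genes 3 were higher and 4 lower at that level, with a median of 0.00543. Cyp2j6, an arachidonic acid epoxygenase, read 5.87, 6.54, 6.17 and 5.96 against 7.33, 6.95, 6.77 and 7.58, without overlap (difference -1.02, adjusted p = 0.123). Cyp2d26 differed by -0.37 and Cyp2c70, the hydroxylase of mouse bile acids, by 0.27 (adjusted p = 0.155 and 0.183). Of 4 measured flavin monooxygenase genes, which encode oxygenases of nitrogen and sulfur compounds, Fmo5 read 11.50, 11.20, 11.75 and 11.74 against 11.17, 10.99, 11.06 and 11.13, without overlap (difference 0.46, adjusted p = 0.183). Fmo1, Fmo2 and Fmo4 differed by -0.07, -0.56 and -0.17.

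Calls were found in the vesicle list alone of the 35. Of 32 measured genes of vesicle tethering and fusion, the list that holds Exoc4 and Stx8, these 2 were called and the median was -0.06. The list was chosen with earlier results of these data known and holds the families of both genes. That it contains calls is therefore a description with no test. The exocyst genes Exoc7 and Exoc6b differed by -0.31 and 0.19 (limma adjusted p = 0.136 and 0.268). Of 20 genes of the unfolded protein response 2 were higher at an unadjusted p under 0.05, Edem1 by 0.18 and Dnajb9 by 0.18. At that level 6.64% of all genes were higher and 7.7% lower. Of 16 clock genes 3 were lower, a share of 3 in 16 against the 7.7% of all genes. They were Cry2 by -0.18, Per3 by -0.39 and Npas2 by -0.14, and none was called. Of 17 genes of the p53 and DNA damage response, 1 was lower, Bbc3, by -0.15. Over the 35 lists, 600 distinct genes were measured of 682 distinct listed names. Of the 600, 2 were called, and 25 were higher and 40 lower at an unadjusted p under 0.05. These shares, 4.17% and 6.67%, lay under the 6.64% and 7.7% of all genes.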

How the data were processed

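Liver total RNA (250 ng) was amplified from the 3′ ends of transcripts (Affymetrix 3′-IVT) and hybridised to GeneAtlas MG-430 PM arrays, per the labels' protocols. The authors deposited log2 values, summarised by RMA per the submitters' processing notes. The RMA version is not given in these sources, and the number of arrays limits the precision. Of 45141 probe sets 104 controls were left out, and the platform annotation gave 28898 of the rest 1 symbol, 551 several and 15588 none. Of several probe sets per gene, the one of highest mean over the 8 arrays was taken, with no filter on low values. Groups came from the sample titles.

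Differences were fitted with limma 3.58.1 (R 4.3.3; lmFit, eBayes, two-sided, Benjamini-Hochberg over all genes) on the 8 arrays only. The script was checked on data with known answers. The experiment, the 35 lists and the naming rule were chosen with earlier results of these data known. Named were called genes, the genes of smallest p up to 10 rises, the 5 largest uncalled differences per direction, up to 4 members of smallest p per list, and the 10 genes per direction furthest apart on ACAT2 ASO 1 and control ASO 4. Promoter windows and spans are RefSeq's (GRCm38.p6), with windows of 1 chromosome left out. Alternatives covered filtering, scaling, probe set choice, variance model, array weights, all 18 arrays, a replicate block, thresholds and single arrays. Figures were drawn with matplotlib 3.10.9.

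Replicate numbers were not treated as pairs. The correlation of the deviations of same-numbered arrays from their group means was -0.48, 0.11, 0.47 and -0.30 for numbers 1 to 4.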

Additional observations from a re-analysis of the deposited data

Results flagged for a closer look

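A value was picked out here when, within a group of 4 arrays, its gap to the nearest other array, as a share of the group's range, exceeded Dixon's 95% critical value. Chance picks about 1 in 20 groups. The 103 genes named above gave 206 groups, and 21 values were picked; the 35 lists gave 70 groups of list means, and 9 were picked. Most lay on control ASO 4 (9 genes and 7 lists) and on ACAT2 ASO 1 (5 genes and 1 list), the arrays whose genes were partly named for these values.

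On control ASO 4, Ubd (8.87), Tgtp1 (11.41), Saa3 (11.42), Ms4a4b (6.97), Ms4a6d (6.59) and Pla2g7 (7.06) were above the other control arrays, and Acot3 (9.84), Ces1f (10.71) and Cyp2d26 (11.96) were below them. The same array was highest in the list means of interferon-stimulated genes (7.93), acute phase and complement genes (11.74), chemokines and inflammatory signalling (6.37), macrophage markers (7.51), lymphocyte markers (5.02), neutrophil markers (5.16) and pancreatic acinar cell markers (4.66).

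On ACAT2 ASO 1, Ubd (6.25) was above the other ACAT2 ASO arrays, Hao2 (6.09), Krt23 (5.03), Gstt2 (8.24) and Cyp2b13 (7.71) were below them, and the list mean of cell cycle and growth entry (5.47) was above them. On ACAT2 ASO 2, Nsdhl (7.40) and Golt1a (6.58) were high and Ddit4 (6.37) and Dtnb (5.21) low. On ACAT2 ASO 4, Dmbt1 (5.68) and Bscl2 (6.62) were high. On the control side, Apoc2 (11.77) was high on control ASO 1, and the mean of EGF receptor ligands and receptors (6.04) was low on control ASO 2.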

How the results depend on the processing

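The count of 17 called genes stayed within 1.5 times under the filter, both rescalings, the probe set of largest interquartile range and the trended and robust variance. It was 10 with all probe sets of a gene averaged, 53 with array weights, 114 with all 18 arrays in the fit, 11 with a log2 change of at least 0.58, 1 at an adjusted p under 0.01, 74 under 0.10, and 9 without ACAT2 ASO 1 and control ASO 4. With single arrays left out it ranged from 0 to 18. The 20 called probe sets became 34 with the trended and robust variance, 51 with array weights, 219 with all 18 arrays, 5 at an adjusted p under 0.01, 207 under 0.10, 12 without both arrays, and 5 to 13 with single arrays left out. With a replicate block limma called 0 genes (2090 at an unadjusted p under 0.05) and 2 probe sets. Only 1 ACAT2 ASO array correlated best with the control array of its number. All 17 called genes kept their direction in every setting. The fit on all 18 arrays kept 15 of the 17, and the array weights kept 17. Where counts moved the cause was not tested, except that stricter thresholds leave fewer calls by construction. Fewer arrays need not do so, and the count was 18 genes without control ASO 4. Rescaling moved the median over all genes by at most 0.01.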
